A study of Saccharomyces cerevisiae with 8 samples.

Results

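The signals of 10 genes of the mitochondrial tricarboxylic acid cycle were followed, out of the 5656 genes that the array platform names by a probe set of their own. They were found by gene symbol in the platform annotation, and each was measured by 1 probe set. The RNA came from Saccharomyces cerevisiae, budding yeast, on 8 Affymetrix arrays of total RNA. BY4742, a haploid laboratory strain of mating type alpha called wild type here, and a stb3-null strain were grown for 3 days in YPD, a rich medium, and sampled at that point or 10 min after 2% glucose was added. The 4 groups were wild type at 3 days, wild type after glucose, stb3-null at 3 days and stb3-null after glucose, each with replicates A and B, and both strains were grown in the same medium. The series was designed to compare the glucose response of the deletion strain with that of wild type. The deleted gene, STB3, encodes a DNA-binding protein of ribosome biogenesis promoters. The sources used here do not say whether the stb3-null strain was 1 clone or whether replicates were grown as separate cultures. The p-values therefore cover only the spread between these arrays, which may be technical.

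The cycle oxidises the acetyl group of acetyl-CoA in the mitochondrial matrix and hands the electrons to the respiratory chain. It also supplies 2-oxoglutarate and oxaloacetate, from which cells make glutamate and aspartate. Budding yeast represses many respiratory genes when glucose is plentiful and relies on them after the diauxic shift, when ethanol and acetate are consumed. The Hap2/3/4/5 activator drives many of these genes, and Rtg1 and Rtg3, the retrograde regulators, can take over the genes for the steps up to 2-oxoglutarate.

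Values are log2 signals as deposited, so that 1 unit is a doubling of the array signal, which is a share of the RNA put on the array and not an amount per cell. In such bulk samples fewer cells that hold an RNA and less of it per cell cannot be told apart. A gene was called where limma, a linear model fitted to all 5343 genes above a low-signal filter, gave a Benjamini-Hochberg adjusted p below 0.05. All 10 genes passed that filter. The median signal of an array lay between 7.53 and 7.69, and its 2% trimmed mean of antilog signals between 437 and 504 at 3 days and between 625.5 and 673 after glucose. Both wild type B arrays stood apart: the first principal component (78.0% of the variance) divided the arrays by glucose, and the second (7.86%) put these 2 arrays at one end. The SD of replicate A minus replicate B over all genes was 0.58 and 0.55 in the wild-type groups and 0.26 and 0.28 in those of stb3-null. STB3 followed the labels. It read 9.23 and 8.48 in wild type at 3 days and 8.42 and 7.62 after glucose, against at most 3.30 on the stb3-null arrays. Of the alpha-cell genes MF(ALPHA)1, MF(ALPHA)2, STE3 and SAG1 the lowest signal was 6.88, and of the a-cell genes MFA1, MFA2, STE2, STE6, BAR1 and AGA2 the highest was 7.81, so the ranges of both lists overlapped, and levels of different probe sets do not settle the mating type. IME1, SPR3 and DMC1, genes of diploid or sporulating cells, read 7.42 to 9.81, 5.19 to 7.65 and 5.17 to 7.26. Such levels do not settle whether the cells were haploid.

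Citrate synthase opens the cycle by joining acetyl-CoA to oxaloacetate, and of the genes for its 2 mitochondrial isozymes 1, CIT3, fell after glucose. CIT3 (YPR001W) encodes the isozyme that also makes 2-methylcitrate from propionyl-CoA. Its signal was 9.79 and 9.93 in wild type at 3 days and 7.36 and 7.07 after glucose. In stb3-null it was 9.57 and 9.82 at 3 days and 7.18 and 7.21 after glucose. All 4 arrays after glucose lay more than 2 units below all 4 arrays at 3 days, in both strains. How many of all genes separate by time was not counted, so such a separation, here and below, is a description only. CIT3 fell by 2.65 in wild type (SE 0.20, adjusted p = 1.88e-05, limma), a 6.25-fold lower signal, and by 2.50 in stb3-null (SE 0.20, adjusted p = 1.10e-04), a 5.66-fold lower one. In each of 20 repeats with other processing or with arrays left out CIT3 passed in both strains, at changes from -3.13 to -1.999 in wild type and from -3.00 to -1.87 in stb3-null. Several of these repeats left the log2 change itself as it was, here and for the other genes. Of all genes tested 17.6% fell in the wild-type comparison and 11.6% in that of stb3-null. Averaged over both strains the change of CIT3 stood at the 0.487 percentile of all genes.

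CIT1 (YNR001C), the main mitochondrial citrate synthase gene, did not pass. It read 11.79 and 11.56 in wild type at 3 days and 11.34 and 11.06 after glucose, and 12.13 and 11.90 and then 11.97 and 11.91 in stb3-null. Both wild-type arrays after glucose lay below both at 3 days, and the stb3-null arrays overlapped between the times. The change was -0.47 in wild type (95% confidence interval -1.04 to 0.09, adjusted p = 0.143) and -0.07 in stb3-null (-0.64 to 0.49, adjusted p = 0.831). With quantile normalisation CIT1 passed downward in both strains, at -1.19 (adjusted p = 0.00283) and -0.89 (adjusted p = 0.0173), and with a common trimmed mean in wild type, at -0.96 (adjusted p = 0.006).

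**Figure D1:**
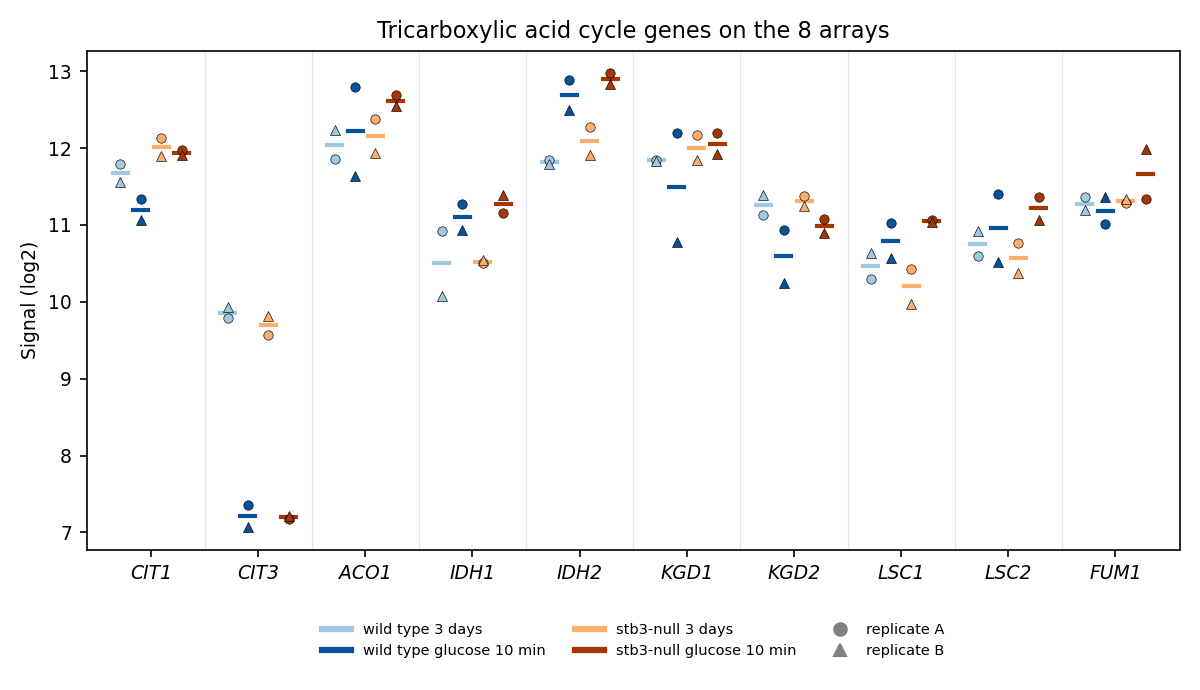
Log2 signal of the 10 genes on each array, with circles for replicate A, triangles for replicate B and a bar at the mean of the 2 arrays of a group. CIT3 drops from between 9.57 and 9.93 at 3 days to between 7.07 and 7.36 after glucose, while the other 9 genes stay between 9.97 and 12.97.

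The remaining genes of the steps up to 2-oxoglutarate read higher after glucose in the values as deposited. ACO1 (YLR304C) encodes aconitase, which turns citrate into isocitrate. It read 11.86 and 12.23 in wild type at 3 days and 12.80 and 11.64 after glucose, and 12.38 and 11.93 and then 12.69 and 12.54 in stb3-null. The wild-type arrays after glucose lay on both sides of those at 3 days, whereas both stb3-null arrays after glucose lay above both at 3 days. Its changes of 0.17 (-0.68 to 1.03, adjusted p = 0.726) and 0.46 (-0.40 to 1.32, adjusted p = 0.36) did not pass.

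IDH1 and IDH2 encode the regulatory and the catalytic subunit of the NAD-dependent isocitrate dehydrogenase, which makes 2-oxoglutarate. IDH2 (YOR136W) read 11.85 and 11.79 in wild type at 3 days and 12.89 and 12.49 after glucose, and 12.27 and 11.91 and then 12.97 and 12.83 in stb3-null. All 4 arrays after glucose lay above all 4 at 3 days. IDH2 was called upward in both strains, by 0.87 in wild type (SE 0.27, adjusted p = 0.0234) and by 0.81 in stb3-null (SE 0.27, adjusted p = 0.0392). This call depended on how the arrays were scaled: with quantile normalisation the changes were 0.01 (adjusted p = 0.96) and -0.03 (adjusted p = 0.936), and with a common trimmed mean 0.39 (adjusted p = 0.165) and 0.31 (adjusted p = 0.272). With median centring the wild-type call held (0.78, adjusted p = 0.0395) and the stb3-null call was lost (adjusted p = 0.07). The fit shared 1 estimate of the spread over all 4 groups, and replicates differed more in wild type. The wild-type call was lost with array weights, which count noisier arrays less (adjusted p = 0.0835). It was also lost in a fit on the wild-type arrays alone (adjusted p = 0.105). IDH2 passed in 12 of 20 other settings in wild type and in 13 of 20 in stb3-null. The stb3-null call was lost without any 1 of the 4 stb3-null arrays (adjusted p from 0.07 to 0.221), and the wild-type call without wild type 3 days replicate B, wild type glucose replicate A or either stb3-null array after glucose.

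IDH1 (YNL037C) read 10.92 and 10.08 in wild type at 3 days and 11.27 and 10.93 after glucose, and 10.50 and 10.54 and then 11.15 and 11.39 in stb3-null. Every array after glucose lay above every array at 3 days, by as little as 0.01. The changes of 0.60 (adjusted p = 0.133) and 0.75 (adjusted p = 0.0801) did not pass. In stb3-null IDH1 passed in 5 of 20 other settings, among them a fit on the stb3-null arrays alone (adjusted p = 0.00598).

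The next enzyme, 2-oxoglutarate dehydrogenase, oxidises 2-oxoglutarate to succinyl-CoA. Of its genes KGD1 and KGD2 were followed, and their group means after glucose lay below or near those at 3 days. LPD1 and KGD4, for further subunits, were outside the 10 genes, and the group means of LPD1 were higher after glucose in both strains. KGD1 (YIL125W) encodes the E1 subunit of the enzyme. It read 11.85 and 11.83 in wild type at 3 days and 12.20 and 10.78 after glucose, and 12.17 and 11.84 and then 12.19 and 11.92 in stb3-null. The 2 wild-type arrays after glucose differed by 1.42, the widest replicate gap among the 10 genes, and lay on both sides of the arrays at 3 days. The changes were -0.35 (-1.27 to 0.57, adjusted p = 0.506) and 0.05 (-0.87 to 0.97, adjusted p = 0.933). Without wild type glucose replicate A the wild-type change was -1.06 (adjusted p = 0.0172), and without replicate B it was 0.36 (adjusted p = 0.3598).

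KGD2 (YDR148C) encodes the E2 subunit, the succinyltransferase. It read 11.13 and 11.39 in wild type at 3 days and 10.93 and 10.25 after glucose, and 11.37 and 11.24 and then 11.08 and 10.90 in stb3-null. All 4 arrays after glucose lay below all 4 at 3 days, a separation whose share over all genes was not counted. Its changes of -0.67 (-1.31 to -0.03, adjusted p = 0.0755) and -0.31 (-0.95 to 0.32, adjusted p = 0.401) did not pass as deposited. With quantile normalisation KGD2 passed downward in both strains, at -1.33 (adjusted p = 0.00186) and -0.92 (adjusted p = 0.017), and with a common trimmed mean likewise, at -1.15 (adjusted p = 0.00496) and -0.81 (adjusted p = 0.0307). Without wild type glucose replicate A its wild-type change was -1.01 (adjusted p = 0.0168) and without B -0.33 (adjusted p = 0.3763).

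Succinyl-CoA ligase then releases succinate and makes ATP. LSC1 (YOR142W), for its alpha subunit, read 10.29 and 10.63 in wild type at 3 days and 11.02 and 10.57 after glucose, and 10.43 and 9.97 and then 11.07 and 11.04 in stb3-null. The stb3-null arrays did not overlap between the times, and the wild-type arrays did. LSC1 was called upward in stb3-null, by 0.85 (SE 0.28, adjusted p = 0.0342), and not in wild type, at 0.33 (adjusted p = 0.337). The difference between both responses, 0.52 (-0.35 to 1.39, adjusted p = 0.798), did not pass, and the stb3-null call was lost with median centring (0.75, adjusted p = 0.0598), with a common trimmed mean (0.36, adjusted p = 0.23) and with quantile normalisation (0.37, adjusted p = 0.226). It was also lost without any 1 of the 4 stb3-null arrays (adjusted p from 0.0571 to 0.231).

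LSC2 (YGR244C), for the beta subunit, read 10.59 and 10.92 in wild type at 3 days and 11.40 and 10.52 after glucose, and 10.76 and 10.38 and then 11.36 and 11.07 in stb3-null. Its wild-type arrays overlapped between the times, and its stb3-null arrays did not. Its changes of 0.20 (adjusted p = 0.63) and 0.64 (adjusted p = 0.145) did not pass. In stb3-null LSC2 passed in 3 of 20 other settings, among them a fit on the stb3-null arrays alone (adjusted p = 0.02). Its change there went down to 0.05 in other settings. FUM1 (YPL262W) encodes fumarase, which hydrates fumarate to malate in the mitochondria and also works outside them. It read 11.36 and 11.19 in wild type at 3 days and 11.01 and 11.36 after glucose, and 11.29 and 11.34 and then 11.34 and 11.99 in stb3-null. The arrays of FUM1 overlapped or touched between the times in both strains, at changes of -0.09 (-0.73 to 0.55, adjusted p = 0.816) and 0.35 (-0.29 to 0.995, adjusted p = 0.355).

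Counted together, 1 of the 10 genes rose in wild type (IDH2) and 1 fell (CIT3), where 32.3% of all genes rose and 17.6% fell. In stb3-null 2 rose (IDH2 and LSC1) and 1 fell, where 28.0% of all genes rose and 11.6% fell. The median change of the 10 genes was 0.04 in wild type and 0.41 in stb3-null, beside 0.22 and 0.26 over all genes. Of the 5 genes of the steps from citrate to 2-oxoglutarate the wild-type median was 0.17 and the stb3-null median 0.46, and for the 5 genes of the later steps they were -0.09 and 0.35. The widest confidence interval was that of KGD1, and for none of the 9 genes other than CIT3 did it reach a fall or a rise of 2 units in either strain.

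**Figure D2:**
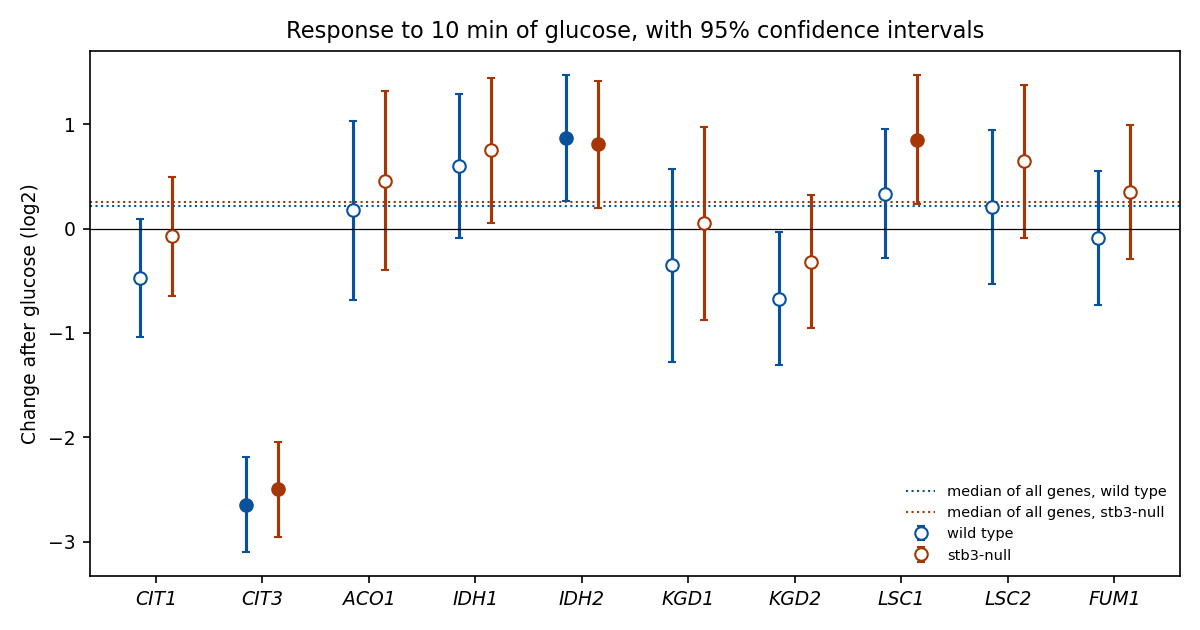
Change of each gene after 10 min of glucose on the log2 scale in wild type and stb3-null, with 95% confidence intervals from the limma fit. Filled points passed at an adjusted p below 0.05, and dotted lines mark the median of all genes. CIT3 stands at -2.65 and -2.50, and the other 9 genes lie between -0.67 and 0.87.

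The mean of both glucose responses, a comparison added after the values were seen, drew on all 8 arrays. CIT3 fell by 2.57 (SE 0.14, adjusted p = 1.78e-06), and 21.1% of all genes fell. IDH2 rose by 0.84 (SE 0.19, adjusted p = 0.00395), IDH1 by 0.67 (SE 0.22, adjusted p = 0.0226) and LSC1 by 0.59 (SE 0.20, adjusted p = 0.0237), where 39.8% of all genes rose. IDH2 passed in 17 of 19 other settings, IDH1 in 12 and LSC1 in 11, and IDH1 and LSC1 were each lost in 5 of the 8 fits without 1 array, at changes of 0.46 to 0.69 for IDH1 and 0.48 to 0.60 for LSC1. KGD2 was lower by 0.49 without passing (adjusted p = 0.0571). The direction of these smaller changes was tied to the scale of the arrays. Over all 10 genes the median was 0.22 as deposited, 0.13 with median centring, -0.27 with a common trimmed mean and -0.54 with quantile normalisation, beside 0.24, 0.14, -0.26 and 0.03 over all genes. With quantile normalisation CIT1 (-1.04, adjusted p = 6.20e-04), KGD1 (-0.94, adjusted p = 0.0094), KGD2 (-1.12, adjusted p = 4.72e-04) and FUM1 (-0.56, adjusted p = 0.0493) passed downward beside CIT3, and IDH1, IDH2 and LSC1 lay between -0.01 and 0.11. CIT3 was the only one of the 10 genes to pass under all 4 scalings.

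**Figure D3:**
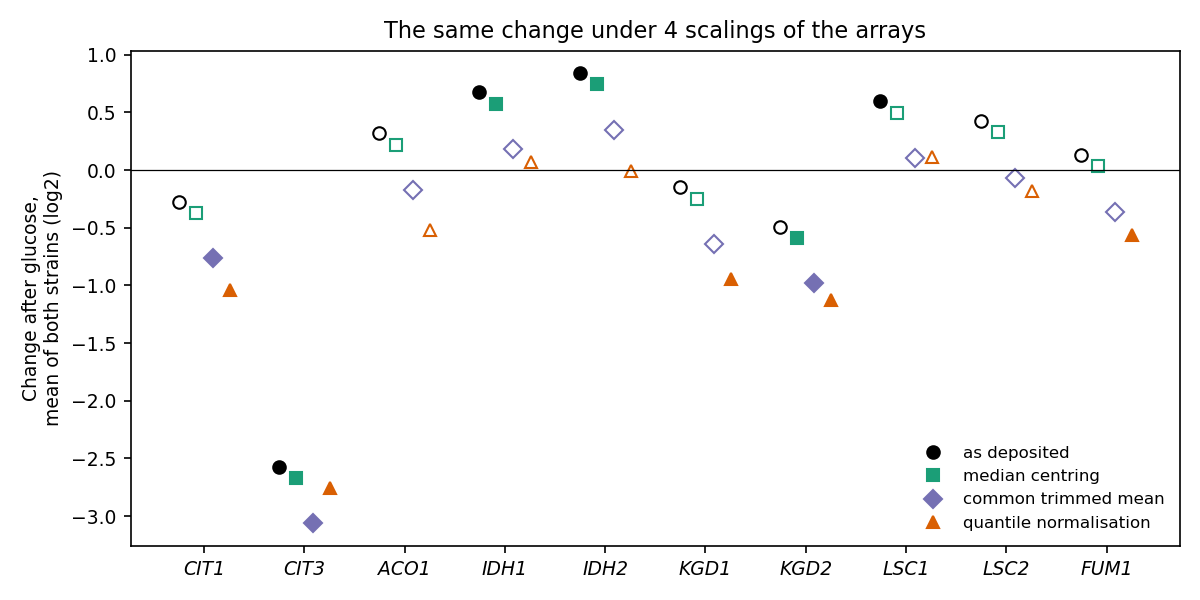
Mean change over both strains after glucose, on the log2 scale, of each gene in the values as deposited and after median centring, scaling to a common trimmed mean and quantile normalisation. Filled symbols passed at an adjusted p below 0.05. CIT3 stays between -3.06 and -2.57, whereas FUM1, ACO1, LSC2 and IDH2 lie above 0 as deposited and below 0 with quantile normalisation.

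The difference between 2 genes on the same array does not change when an array is multiplied by a factor, so it was read for the isozyme and subunit pairs, which were picked after the values were seen. The level of such a difference depends on the probes, and only its change was used. CIT3 minus CIT1 was -2.07 ± 0.38 (SD, n = 4) on the arrays at 3 days and -4.37 ± 0.44 (SD, n = 4) after glucose, a change of -2.30. The 4 arrays at 3 days (-2.56 to -1.63) and the 4 after glucose (-4.79 to -3.98) did not overlap. An exact two-sided permutation test over the 8 arrays gave p = 0.0286, the smallest that 70 regroupings allow, and 0.114 after adjustment over the 4 pairs. Any pair without overlap reaches this p, and 54.6% of all pairs of genes tested did not overlap. The pair was also picked by its values, so the p adds nothing to the description. The regroupings took no account of strain. For the subunit pairs the changes were smaller: 0.17 for IDH2 minus IDH1 (exact p = 0.543, adjusted 0.543), -0.34 for KGD2 minus KGD1 (exact p = 0.114, adjusted 0.229) and -0.17 for LSC2 minus LSC1 (exact p = 0.229, adjusted 0.305). In each subunit pair the values before and after glucose overlapped. Quantile normalisation is not a single factor for an array, and it moved these changes. The change of CIT1 minus CIT3 was 2.30 as deposited and 1.72 with it, and that of IDH2 minus IDH1 0.17 and -0.08. For KGD1 minus KGD2 the values were 0.34 and 0.18, and for LSC1 minus LSC2 0.17 and 0.29.

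Differences between genes of different steps changed by unequal amounts, a description without a test. IDH1 minus ACO1 changed by 0.36 and ACO1 minus CIT1 by 0.59, and both overlapped between the times. IDH2 minus KGD2 was 0.67 ± 0.21 (SD, n = 4) at 3 days and 2.00 ± 0.16 (SD, n = 4) after glucose, and IDH2 minus CIT1 went from 0.11 ± 0.10 (SD, n = 4) to 1.23 ± 0.31 (SD, n = 4). Neither of these 2 differences overlapped between the times, and their gaps ran from 0.90 to 1.89 and from 0.23 to 0.92. LSC1 minus KGD2, across the step from 2-oxoglutarate to succinate, went from -0.95 ± 0.22 (SD, n = 4) to 0.14 ± 0.14 (SD, n = 4). Of the 45 pairs among the 10 genes 22 did not overlap, 9 of them with CIT3, and with quantile normalisation 25 did not. The 22 pairs were 48.9% of the 45, beside 54.6% of all 14271153 pairs of genes tested. Without CIT3 they were 13 of 36 pairs, or 36.1%.

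In wild type after glucose the replicates of these genes differed mostly in one direction. Of the 10 genes 9 read higher on replicate A than on replicate B in that group, by a median of 0.43, with FUM1 lower by 0.35. Of all genes tested 48.0% read higher on A there. The 7 other measured cycle genes, which encode the 4 succinate dehydrogenase subunits SDH1 to SDH4, malate dehydrogenase MDH1, the shared lipoamide dehydrogenase LPD1 and KGD4, a further 2-oxoglutarate dehydrogenase subunit, were all higher on A, by 0.76 to 1.49. In the other groups the median of A minus B over the 10 genes lay between -0.06 and 0.28. HAP4, for the glucose-regulated subunit of the Hap activator, was higher on A by 1.70 in wild type after glucose, by 0.50 in wild type at 3 days and by 0.11 in stb3-null at 3 days, and equal on both arrays of stb3-null after glucose. Its part in the replicate difference was not tested.

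**Figure D4:**
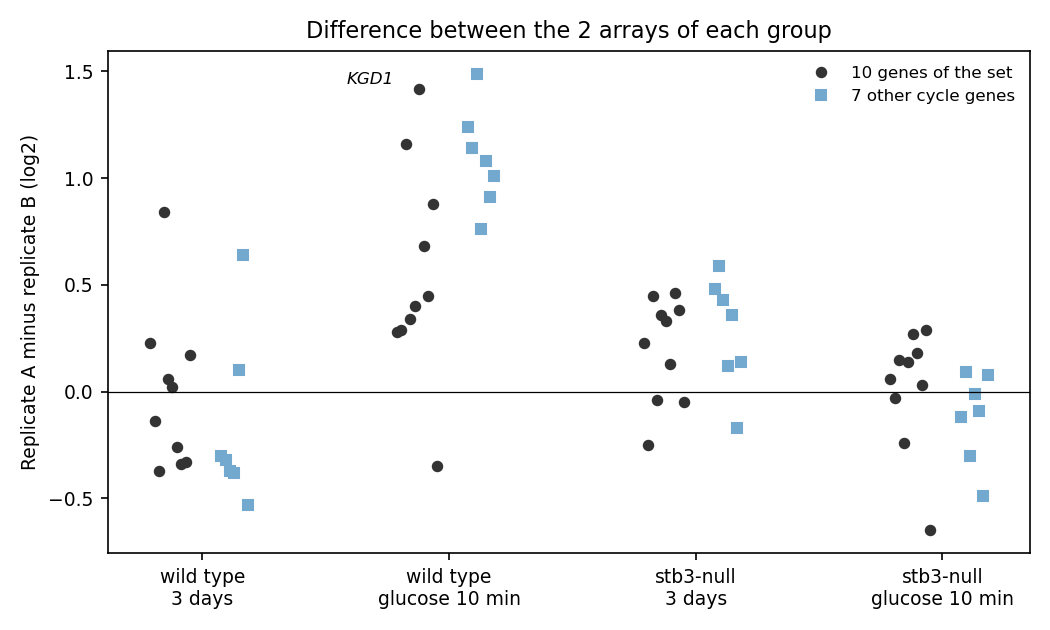
Replicate A minus replicate B on the log2 scale in each group, with circles for the 10 genes and squares for the 7 other cycle genes. In wild type after glucose 9 circles and all 7 squares lie above 0, with KGD1 at 1.42, whereas the points of the other groups fall on both sides of 0.

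The median of the wild-type response changed sign with the array left out of that group. It was -0.32 without wild type glucose replicate A, 0.46 without replicate B and 0.35 without both wild type B arrays, a setting added after seeing the data. With both B arrays out the wild-type response is 1 array against 1 array, at 0.94 for ACO1, 0.81 for LSC2 and 1.04 for IDH2, with no spread of its own.

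Deletion of STB3 was compared with wild type at each time. No gene of the set was called in either comparison by limma, and 0.0374% of all genes were called at 3 days and 0.0187% after glucose. At an unadjusted p below 0.05 the counts were 0 of 10 at 3 days and 1 of 10 after glucose, where 8.72% and 9.66% of all genes lay. At 3 days the differences, stb3-null minus wild type, ran from -0.26 for LSC1 to 0.34 for CIT1, with a median of 0.04. After glucose they ran from -0.02 for CIT3 to 0.74 for CIT1, and 9 of the 10 genes read higher in stb3-null (median 0.33, beside 0.03 over all genes, of which 54.2% read higher). This median rested on 1 array: it was 0.01 without wild type glucose replicate B and 0.59 without replicate A.

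CIT1 was the gene with the largest strain difference in the set, singled out after its values were seen. All 4 stb3-null arrays, at 11.90 to 12.13, lay above all 4 wild-type arrays, at 11.06 to 11.79, which held for 1.24% of all genes. Averaged over both times, CIT1 was higher in stb3-null by 0.54 (0.14 to 0.94, unadjusted p = 0.0136), and with adjustment over all genes it did not pass (adjusted p = 0.326). Only 0.0561% of all genes passed in that averaged comparison. The difference stayed between 0.41 and 0.61 in 19 other settings and passed in none of them.

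The responses of both strains were compared as an interaction. No gene of the set and 0% of all genes passed, and 0 of the 10 and 6.92% of all genes lay at an unadjusted p below 0.05. For CIT3 the difference between the responses was 0.14 (-0.50 to 0.79, adjusted p = 0.918), and for IDH2 it was -0.06 (-0.92 to 0.80, adjusted p = 0.976). The intervals thus left room for a difference of up to 0.79 for CIT3 and of up to 1.71 for KGD1, whose interval was the widest. The median difference of 0.38 was 0.62 without wild type glucose replicate A, 0.00 without replicate B and -0.09 without both wild type B arrays.

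CIT3 fell together with the other genes of the methylcitrate cycle, which breaks down propionyl-CoA. PDH1 (YPR002W), the next gene to CIT3 on the chromosome in the RefSeq table of assembly R64, encodes methylcitrate dehydratase, and ICL2 encodes methylisocitrate lyase. PDH1 read 9.75 and 9.16 and then 7.84 and 6.82 in wild type, and 9.04 and 9.40 and then 7.25 and 7.34 in stb3-null. It fell by 2.12 (adjusted p = 6.99e-04) and 1.92 (adjusted p = 0.00217), on 8 arrays that did not overlap between the times. ICL2 fell by 1.97 (adjusted p = 9.04e-05) in wild type and by 0.94 (adjusted p = 0.00749) in stb3-null, the latter passing in 18 of 20 other settings.

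Around the entry to the cycle, pyruvate dehydrogenase genes moved in both directions. The kinase genes PKP1 and PKP2, whose products switch the enzyme off, fell by 1.01 and 1.80 in wild type (adjusted p = 0.00327 and 9.09e-05) and by 0.61 and 1.51 in stb3-null (adjusted p = 0.0426 and 5.22e-04), a call that PKP1 kept in 14 of 20 other settings in stb3-null. PDA1, for the E1 alpha subunit, rose by 0.85 and 0.86 (adjusted p = 0.0354 and 0.0416), and in other settings its change went down to 0.03 and 0.07 (it passed in 11 and 13 of 20). In all, 1 of 7 genes rose and 3 fell in each strain, beside 32.3% and 28.0% of all genes that rose and 17.6% and 11.6% that fell. None of the 7 other cycle genes passed in either strain, with medians of 0.03 and 0.36. The highest were LPD1 in wild type and SDH4 in stb3-null, both at 0.76. In the mean of both responses LPD1 was called upward, the only one of these genes to pass there.

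Genes that move cycle intermediates across the inner membrane, or make them from pyruvate, held members called in each direction. MPC3, for the pyruvate carrier subunit of respiring cells, fell by 3.49 and 2.83 (wild type, then stb3-null; adjusted p = 1.67e-05 and 1.31e-04), and MPC2, for the subunit of fermenting cells, rose by 1.43 and 0.80 (adjusted p = 0.00154 and 0.0323). OAC1, the oxaloacetate carrier gene, rose by 2.57 and 2.55 (adjusted p = 2.76e-04 and 6.16e-04), and YHM2, for the carrier of citrate and 2-oxoglutarate, by 1.88 and 1.57 (adjusted p = 6.22e-04 and 0.00281). Of 14 carrier and anaplerotic genes 5 rose and 2 fell in wild type, and 4 rose and 2 fell in stb3-null, shares near those of all genes. Of 2 further mitochondrial enzyme genes measured, IDP1 and MAE1, the malic enzyme gene MAE1 rose by 3.18 and 2.42 (adjusted p = 1.47e-05 and 1.50e-04). MPC3, OAC1, YHM2 and MAE1 passed in all 20 other settings in both strains, and MPC2 in 20 in wild type and 13 in stb3-null.

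HAP4 read 11.80 and 11.30 and then 10.23 and 8.53 in wild type, and 11.80 and 11.69 and then 9.79 on both arrays in stb3-null. It fell by 2.17 (adjusted p = 0.00377) and 1.96 (adjusted p = 0.00921), in 20 and 17 of 20 other settings. Of 9 genes for Hap and retrograde regulators HAP2 also fell in wild type, by 0.66 (adjusted p = 0.0381), in 10 of 20 other settings, and none rose in either strain. Beside this, 17.6% of all genes fell and 32.3% rose in wild type, and 11.6% fell and 28.0% rose in stb3-null. Of the 3 retrograde targets outside the mitochondrial cycle DLD3 rose in wild type by 1.57 (adjusted p = 0.00211), with 0.32 in stb3-null (adjusted p = 0.426), and CIT2, the peroxisomal citrate synthase gene, was at -0.41 and -0.60 (adjusted p = 0.221 and 0.1). The remaining target, PYC1, changed by 0.285 and 0.645 without passing.

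Genes that make, use or break down glutamate and aspartate had median changes of 0.73 in wild type and 1.06 in stb3-null, beside 0.22 and 0.26 over all genes. Of these 10 genes 4 rose and 1 fell in wild type, a rising share near the 32.3% of all genes, and 5 rose in stb3-null, where 28.0% of all genes did. AAT1, the mitochondrial aspartate aminotransferase gene, rose by 2.10 and 1.82 (adjusted p = 1.34e-04 and 6.02e-04), GDH1, for the glutamate-forming dehydrogenase, by 2.36 and 1.52 (adjusted p = 0.00141 and 0.0178) and UGA1, for an aminotransferase of 4-aminobutyrate, by 2.00 and 2.17 (adjusted p = 0.00601 and 0.00593). In stb3-null GDH1 passed in 14 of 20 other settings. Among 7 extramitochondrial isozymes and glyoxylate cycle genes IDP3, for the peroxisomal isocitrate dehydrogenase, was the only one to pass in the single-strain comparisons, and it fell by 2.55 and 1.36 (adjusted p = 2.99e-04 and 0.0126), in 20 and 16 of 20 other settings. Of all genes 17.6% fell in wild type and 11.6% in stb3-null. In the mean of both responses CIT2 also fell, by 0.51 (adjusted p = 0.04), and ICL1, the isocitrate lyase gene, rose by 0.74 (adjusted p = 0.0217). Within a strain ICL1 passed in 3 of 20 other settings in wild type and in 3 in stb3-null. Its change there went down to 0.02 and -0.25, so its direction depended on the setting. CIT2 passed in 2 and 5 of 20. No gene of the surrounding lists was called in a strain comparison or in the difference between both responses.

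**Figure D5:**
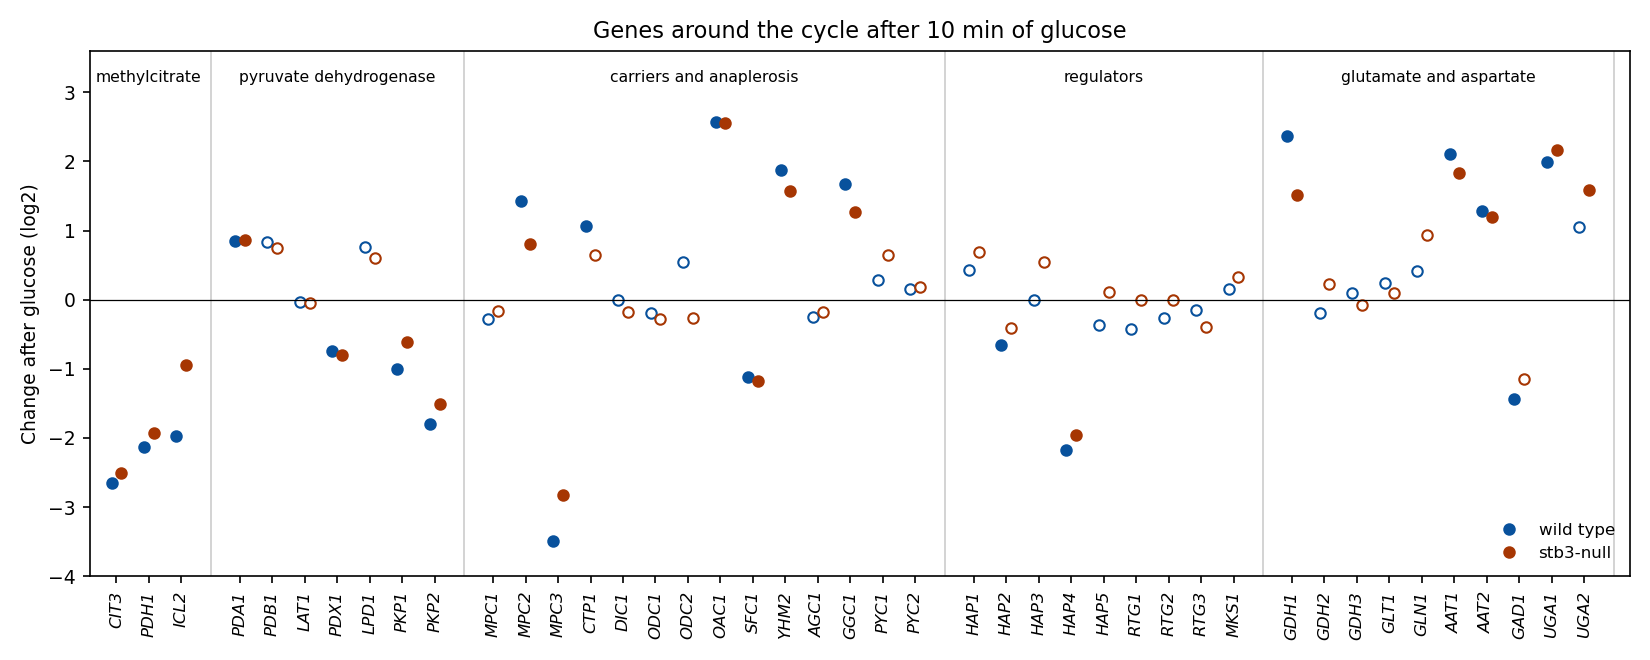
Change after 10 min of glucose on the log2 scale for genes around the cycle in wild type and stb3-null, grouped by role, with filled points for genes that passed at an adjusted p below 0.05. Among the genes plotted MPC3 is lowest at -3.49 and -2.83 and OAC1 highest at 2.57 and 2.55, and the 3 methylcitrate genes all lie below 0.

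The genes whose signals ran most like that of CIT3 over the 8 arrays, by Pearson's r, were FMS1 (0.996), SUR1 (0.995), ATG17 (0.994), VHS1 (0.993) and YMR206W (0.993). They encode a polyamine oxidase, a subunit of a sphingolipid mannosyltransferase, a scaffold of autophagy initiation, a protein kinase and an uncharacterised protein. The mean of the other 9 genes ran most like RPM2 (0.991), for the protein of mitochondrial RNase P, ATP4 (0.991), for a subunit of ATP synthase, LSP1 (0.980), for an eisosome protein, TPM1 (0.978), for tropomyosin, and YSA1 (0.976), for a nucleoside diphosphate sugar hydrolase. These values describe 8 arrays that fall into 2 sets, before and after glucose, and genes on them share the array, its scale and its replicate. Within the set the highest r was 0.923, between ACO1 and LSC2, and the lowest -0.920, between CIT3 and IDH2.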

How the data were processed

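Total RNA of 8 samples was hybridised to 1 Affymetrix array each, per the labels' protocols. The deposited table holds 1 log2 signal for each of 9275 probe sets, up to 14.55; the base was read from the values. The submitters' processing notes name MAS5 with no version, and the sources used here do not give the scaling between arrays. Values were used as deposited, with no pseudocount.

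Probe sets were named through the platform annotation and a RefSeq gene table (R64): 6504 carried 1 gene, 328 several and 2443 none. The brightest probe set stood for a gene, and genes with a mean antilog signal under 10% of the mean 2% trimmed mean (log2 5.80) were left out, which left 5343 of 5656. All 4 group means were fitted together with limma 3.58.1 in R 4.3.3, with a mean-variance trend, 4 residual and 5.56 prior degrees of freedom, two-sided tests and Benjamini-Hochberg adjustment over all genes of each comparison. The fit was also run on simulated data in which a gene had the same spread in all groups and few genes changed. These arrays differ from that in both, so the run does not measure error rates for them. Precision is limited by the number of arrays.

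The genes and lists were chosen with earlier results of these data known. The naming rule took all 10 genes in every comparison, up to 3 called genes of each surrounding list and the 5 genes of highest correlation, and further genes of a list were named after their values were seen. Other scalings, filters, variance models, the replicate letter as a block and omitted arrays were tried. Promoter motifs were planned and not analysed here, since no sequence was used.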

Additional observations from a re-analysis of the deposited data

How the results depend on the processing

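For the 10 genes, 1380 values from other settings were set beside those reported, over 7 comparisons and up to 21 settings each. Several settings left log2 changes within a strain as they were. These were array weights, the replicate block, another filter or none, no variance trend and the mean of all probe sets. A fit on only the groups compared and an omitted array of the other strain did so too. The counts are therefore not a measure of stability. Of the 1380 values 1215 kept direction and side of the threshold, 37 lost a call, 34 gained one and 91 changed sign without a call under either setting. A called direction turned in 3, all with quantile normalisation: IDH2 in stb3-null (-0.026) and in the mean of both strains (-0.0061), and FUM1, not called as deposited, in the mean of both strains (-0.56). Of 10 genes, 2 were called in wild type as deposited, 4 with quantile normalisation and without both wild type B arrays, and 1 with array weights and with only the groups compared. In stb3-null 3 were called as deposited, 5 with array weights, with only the groups compared and without both wild type B arrays, and 1 with median centring. With 1 array left out the counts ran from 1 to 3 in wild type, from 1 to 4 in stb3-null and from 2 to 6, against 4, in the mean of both strains, and the lone array of a group was then taken to vary like the others. Without both wild type B arrays this holds for both wild-type groups, and all the spread comes from stb3-null. The cause of these differences was not tested. None of the 10 genes was called in a strain comparison or in the difference between responses under any setting run.

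Over all genes, the glucose count of 2113 in stb3-null was 3255 with array weights, 3284 with only the groups compared, 3293 without both wild type B arrays and 915 to 1120 without an array of that strain. Over the settings run, 1 to 226 genes were called between strains at 3 days (2 as deposited), 0 to 271 after glucose (1), 1 to 482 over both times (3) and 0 to 33 in the difference between responses (0), the upper ends all without both wild type B arrays. The replicate letters were not taken to pair the samples: over all genes A minus B correlated between groups at 0.13 to 0.22 in 4 of 6 pairs of groups and at -0.18 and -0.17 in the other two. The replicate block called 2 of the 10 genes in wild type, 3 in stb3-null, 4 in the mean of both strains and 0 in the other comparisons, the counts without it. Crossed letters at 3 days called 0 of the 10 genes and 91 genes in all. With 2 arrays a group an exact permutation test within a strain cannot pass the threshold.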
